A study of Populus tremula x Populus tremuloides with 22 samples.

Results

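The genes described here are a short list of regulators of the vascular cambium, the layer of dividing stem cells that forms wood on its inner side and phloem on its outer side. The list holds 6 poplar gene identifiers. It names Potri.014G025300 as WOX4a and Potri.002G124100 as WOX4b, Potri.003G107600 and Potri.001G126100 as copies of PXY (called PXYa and PXYb from here on), Potri.011G011100 as ARK1 and Potri.002G113300 as ARK2. Of the 6 identifiers, 5 had counts among the 34699 genes of the tables, and ARK1 is not analysed here. The names come from the list alone, because the tables give identifiers without gene names.

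In Arabidopsis, PXY is a receptor kinase on the surface of cambium cells. It binds a small CLE peptide that is secreted from the phloem, and this signal keeps the stem cells dividing. WOX4 encodes a homeobox transcription factor that acts downstream of PXY and promotes cambial division. ARK1 and ARK2 are class I KNOX homeobox genes of poplar, related to SHOOT MERISTEMLESS and to BREVIPEDICELLUS of Arabidopsis, and act in the balance between cambium identity and differentiation of its daughter cells. LBD4 and LBD11 are LATERAL ORGAN BOUNDARIES DOMAIN transcription factors, and both have been linked to vascular development in Arabidopsis.

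Transcripts were counted in stem internodes of hybrid aspen (Populus tremula x Populus tremuloides) that had grown for 3 weeks in a greenhouse. Wild type (WT) gave 5 libraries. Overexpression of the Arabidopsis LBD4 gene (LBD4-OE) gave 8 libraries from 3 transgenic lines, line 11 with 3, line 14 with 2 and line 17 with 3. Overexpression of the Arabidopsis LBD11 gene (LBD11-OE) gave 9, with 3 from each of lines 1, 2 and 14. The series title calls the overexpression xylem-specific, while the labels name no promoter, and nothing in the labels says whether replicates of a line were separate trees. The p-values therefore measure the spread between these libraries, which may be technical. The last LBD11-OE line is numbered 14 in the sample titles and 3 in the genotype label, and the title is followed here.

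Total counts ran from 23437445 to 41969957 per library. All 5 counted regulators were deeply covered, with 1151 to 2157 counts for WOX4b, the lowest, and 11448 to 21855 for ARK2, the highest, so that counting error was small beside the spread between libraries. A set of 7 libraries (WT replicate 3, LBD4-OE-11 and LBD11-OE-2) stood apart from the other 15 in 4 genes outside the list, with a summed level of 18.6 to 74.4 counts relative to library size (CPM) against 355 to 2083 CPM. Over all genes tested, WT replicate 3 stood apart on the second principal component, at -75.6 against 1.05 to 16.5 in the other WT libraries, followed by LBD4-OE-11 replicate 1 at -42.7. WT replicate 3, the sole WT library of that smaller set, also had the lowest summed level of the 5 listed secondary wall cellulose synthases of wood-forming xylem among WT, 3564 CPM against 4187 to 4834 CPM in the other 4. All 5 were detected in every library. Their sum ran from 4585 to 7092 CPM in LBD11-OE, from 3968 to 5479 CPM in LBD4-OE and from 3564 to 4834 CPM in WT.

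The comparison of each construct with WT asks whether the regulators that maintain the cambium respond to the LBD genes. In LBD11-OE stems 4 of the 5 regulators changed: both PXY copies rose, and WOX4a and ARK2 fell, with fold changes between 0.779 and 1.37. In LBD4-OE stems ARK2 fell and the other 4 did not pass the test. The call rests on edgeR's quasi-likelihood F test, with p-values adjusted over all 25626 genes tested by the Benjamini-Hochberg method and a threshold of 0.05. It took the libraries of a construct as independent, although they came from 3 lines. With line as a random block in limma voom, 2 regulators passed in LBD11-OE (WOX4a and ARK2, both lower) and 0 in LBD4-OE. The background was high for LBD11-OE, where 32.3% of all genes changed (16.1% rose and 16.3% fell), and low for LBD4-OE, where 4.28% changed (2.71% rose and 1.57% fell). Between the constructs, 8.88% of all genes were lower and 8.08% higher under LBD11, and WOX4a alone among the 5 differed, being lower. The median log2 fold change of the 5 was 0.09 in LBD11-OE and 0.06 in LBD4-OE, beside medians of 0.0019 and -0.0018 over all genes.

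**Figure D1:**
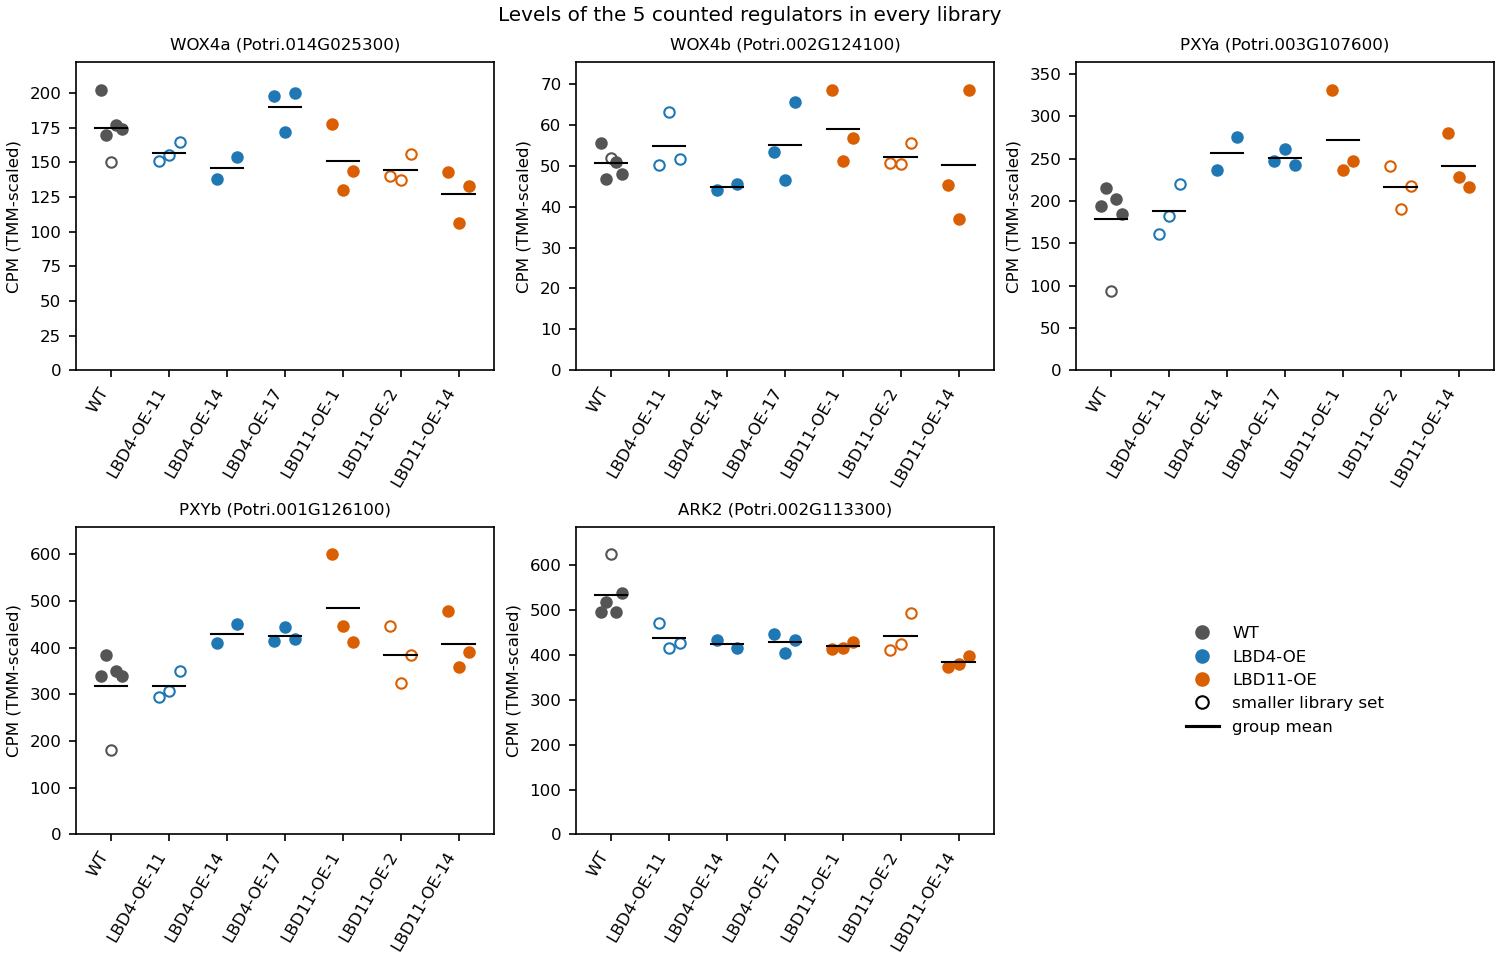
TMM-scaled level in CPM of the 5 counted regulators in each of the 22 libraries, by group. Points are libraries, lines are group means and open points are the 7 libraries of the smaller library set. ARK2 in the WT libraries lies at 494 to 623 CPM, above every transgenic library, and the PXY copies are lowest in WT replicate 3. How many of all genes separate in this way was not counted.

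ARK2, the KNOX regulator, showed the clearest difference. In WT its level was 494, 517, 623, 494 and 538 CPM in replicates 1 to 5. In LBD11-OE it was 412, 414 and 429 CPM in line 1, 410, 423 and 492 CPM in line 2, and 373, 379 and 398 CPM in line 14. The LBD4-OE values were 471, 415 and 425 CPM in line 11, 433 and 415 CPM in line 14, and 446, 404 and 432 CPM in line 17. Every transgenic library thus lay below every WT library, although LBD11-OE-2 replicate 3, at 492 CPM, was close to the lowest WT libraries. The share of all genes that separate the groups in this way was not counted, so the separation cannot be read as particular to ARK2.

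ARK2 averaged 533 ± 53.7 CPM in WT (SD, n = 5), 414 ± 34.6 CPM in LBD11-OE (SD, n = 9) and 430 ± 21.0 CPM in LBD4-OE (SD, n = 8). The log2 fold change against WT was -0.36 ± 0.07 in LBD11-OE (SE, edgeR adjusted p = 2.588e-04), or 0.779-fold with a 95% interval of 0.706 to 0.858. In LBD4-OE it was -0.31 ± 0.07 (SE, edgeR adjusted p = 0.0164), or 0.809-fold with an interval of 0.732 to 0.894. These comparisons share the 5 WT libraries. The test did not separate the constructs in ARK2, with a log2 fold change of -0.05 and a 95% interval of -0.18 to 0.07 (edgeR adjusted p = 0.597). In a bulk sample, fewer cells that express a gene and less of its RNA per cell cannot be told apart.

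Line by line, ARK2 was below WT in each of the 6 lines. It passed the test in LBD11-OE-1 (log2 fold change -0.35, edgeR adjusted p = 0.00611), LBD11-OE-2 (-0.27, adjusted p = 0.0342), LBD11-OE-14 (-0.48, adjusted p = 3.008e-04) and LBD4-OE-17 (-0.32, adjusted p = 0.0477). The call in LBD4-OE-17 was borderline: it passed without WT replicate 1, WT replicate 4, LBD4-OE-11 replicate 1 or LBD11-OE-2 replicate 3, and missed the threshold without each of the other 18 libraries in turn (log2 fold changes of -0.35 to -0.26, edgeR adjusted p up to 0.273). The call in LBD11-OE-2 was lost without WT replicate 3 (edgeR adjusted p = 0.0580), WT replicate 5 (0.0579), LBD11-OE-2 replicate 1 (0.185) or LBD11-OE-2 replicate 2 (log2 fold change -0.24). Both were also lost when only the line and WT were fitted (edgeR adjusted p = 0.192 and 0.128). In LBD4-OE-11 and LBD4-OE-14 the values were of the same size, -0.29 and -0.33, with edgeR adjusted p-values of 0.0807 and 0.110. The share of all genes that changed, in either direction, was 21.5%, 16.3% and 26.7% in LBD11-OE-1, LBD11-OE-2 and LBD11-OE-14, and 1.94%, 0.712% and 2.62% in LBD4-OE-11, LBD4-OE-14 and LBD4-OE-17. WT stood first in the order of ARK2 levels and differed from its neighbour, LBD11-OE-2 at 442 CPM (edgeR adjusted p = 0.0342). Below it the order ran through LBD4-OE-11, LBD4-OE-17, LBD4-OE-14 and LBD11-OE-1 down to LBD11-OE-14 at 383 CPM, and none of these neighbours differed.

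The fall of ARK2 in LBD11-OE kept its call with each library left out in turn, with log2 fold changes of -0.39 to -0.30 and edgeR adjusted p-values of 5.672e-05 to 0.00148. It was -0.35 within the larger library set (edgeR adjusted p = 3.472e-04), which leaves out LBD11-OE-2, the LBD11-OE line with the smallest fall. The fall in LBD4-OE missed the threshold without WT replicate 3 (log2 fold change -0.25, edgeR adjusted p = 0.0577), without line LBD4-OE-17 (-0.30, adjusted p = 0.0566) and when line was a random block in limma voom (-0.30, adjusted p = 0.0655), and it was -0.26 within the larger set (edgeR adjusted p = 0.0354). In the smaller set the only control is WT replicate 3, the WT library highest in ARK2 at 623 CPM. The values there, -0.52 in LBD4-OE, thus test nothing about either construct.

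**Figure D2:**
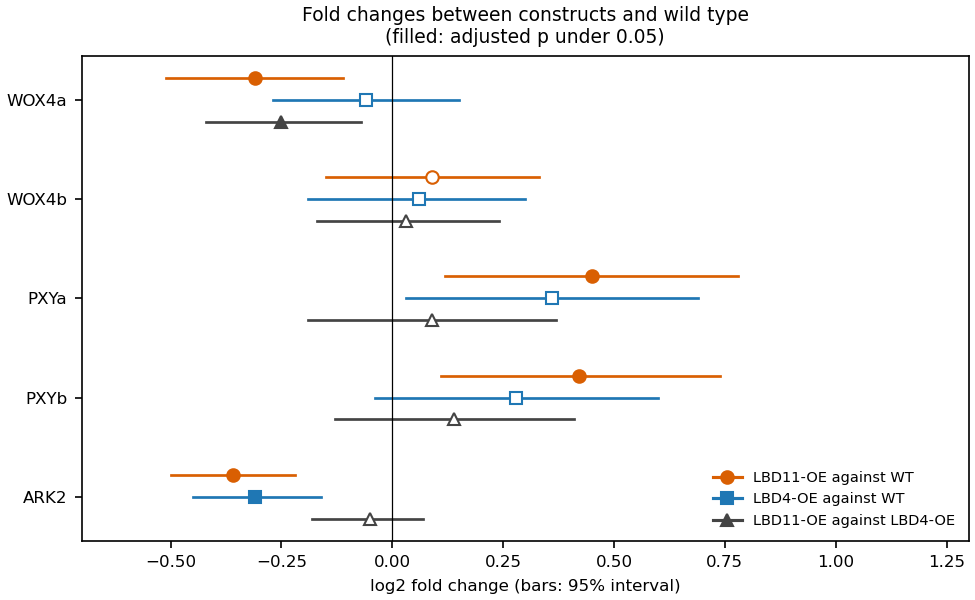
Log2 fold change (x axis) of the 5 regulators in the 3 comparisons of groups, with 95% intervals from edgeR. Filled symbols passed an adjusted p of 0.05. The PXY copies lie to the right and ARK2 to the left of 0 in both comparisons with WT, and the intervals of WOX4b cross 0 in each comparison.

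The PXY copies, the receptors of the list, were higher in LBD11-OE than in WT. PXYa was at 194, 216, 93.8, 203 and 185 CPM in WT replicates 1 to 5. In LBD11-OE it was at 331, 237 and 247 CPM in line 1, 241, 191 and 218 CPM in line 2, and 280, 228 and 217 CPM in line 14. In LBD4-OE it was at 161, 182 and 220 CPM in line 11, 237 and 276 CPM in line 14, and 247, 261 and 243 CPM in line 17. All transgenic libraries except LBD11-OE-2 replicate 2 and LBD4-OE-11 replicates 1 and 2 lay above the highest WT library, and WT replicate 3 lay far below all others. Replicate 3 of LBD11-OE-14, LBD11-OE-2 and LBD4-OE-11, at 217, 218 and 220 CPM, exceeded the 216 CPM of that highest WT library only slightly. How many of all genes lie this way was not counted.

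PXYb was at 339, 385, 181, 350 and 339 CPM in WT replicates 1 to 5. In LBD11-OE it was at 600, 446 and 413 CPM in line 1, 446, 324 and 385 CPM in line 2, and 479, 358 and 390 CPM in line 14. In LBD4-OE it was at 295, 307 and 350 CPM in line 11, 410 and 451 CPM in line 14, and 415, 445 and 419 CPM in line 17. As for PXYa, the groups overlapped, LBD11-OE-1 replicate 1 was highest and WT replicate 3 lowest.

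In LBD11-OE the log2 fold change against WT was 0.45 ± 0.16 for PXYa (SE, edgeR adjusted p = 0.0317), or 1.37-fold. PXYa averaged 178 ± 48.6 CPM in the WT libraries (SD, n = 5) and 243 ± 40.8 CPM under LBD11 (SD, n = 9). For PXYb it was 0.42 ± 0.15 (SE, edgeR adjusted p = 0.0362), or 1.34-fold, with means of 319 ± 79.5 CPM (SD, n = 5) and 427 ± 80.5 CPM (SD, n = 9). In LBD4-OE neither copy passed: PXYa had a log2 fold change of 0.36 with a 95% interval of 0.03 to 0.69 (edgeR adjusted p = 0.190), and PXYb one of 0.28 with an interval of -0.04 to 0.60 (adjusted p = 0.295). Their means there were 228 ± 38.9 and 386 ± 61.0 CPM (SD, n = 8). The constructs were not told apart, with intervals of -0.19 to 0.37 for PXYa and -0.13 to 0.41 for PXYb on the log2 scale.

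The PXY calls for LBD11-OE as a whole depended on WT replicate 3. Its PXYa level was 0.471 and its PXYb level 0.511 times the mean of the other 4 WT libraries, while its ARK2 level was 1.22 times, its WOX4a level 0.830 times and its WOX4b level 1.03 times that mean. Without it, WT averaged 199 ± 13.4 CPM for PXYa and 353 ± 21.5 CPM for PXYb (SD, n = 4), and the log2 fold change in LBD11-OE was 0.29 for PXYa (edgeR adjusted p = 0.0885) and 0.27 for PXYb (adjusted p = 0.117). In LBD4-OE the value without it was 0.20 for PXYa (edgeR adjusted p = 0.432) and 0.13 for PXYb (adjusted p = 0.644). Other libraries also decided the call in LBD11-OE. PXYa missed the threshold without WT replicate 5 (edgeR adjusted p = 0.0524) or LBD11-OE-1 replicate 1 (0.0537). PXYb missed it without WT replicate 1 (edgeR adjusted p = 0.0507), WT replicate 5 (0.0520), LBD11-OE-1 replicate 1 (0.0612), LBD11-OE-1 replicate 2 (0.0518) or LBD11-OE-14 replicate 1 (0.0543).

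Within the larger library set, which leaves out WT replicate 3, both PXY copies were higher in LBD11-OE, by 0.37 for PXYa (edgeR adjusted p = 0.00817) and 0.34 for PXYb (adjusted p = 0.0198) on the log2 scale. That set also leaves out LBD11-OE-2 and LBD4-OE-11, the line of each construct with the lowest PXY values. Against all WT libraries, LBD11-OE-2 was at 0.28 and 0.27, and LBD4-OE-11 at 0.08 and -0.01, for PXYa and PXYb. In the smaller set WT replicate 3 is the only control, so the values there, 1.19 for PXYa and 1.07 for PXYb in LBD11-OE, follow from the low level of that library and test nothing about the construct. With the library set as a term and WT replicate 3 left out, the values in LBD11-OE were 0.39 (edgeR adjusted p = 0.00487) and 0.37 (adjusted p = 0.0100). In that fit the smaller set held no WT library, so WT was compared through the larger set. Without WT replicate 3 and without the set as a term, the values were 0.29 and 0.27 and did not pass. For LBD4-OE, the set as a term over all libraries gave 0.46 for PXYa (edgeR adjusted p = 0.0187) and 0.37 for PXYb (adjusted p = 0.0456), and the same fit without WT replicate 3 gave 0.31 (adjusted p = 0.105) and 0.24 (adjusted p = 0.242). Within the larger set LBD4-OE was above WT by 0.34 (adjusted p = 0.0775) and 0.28 (adjusted p = 0.199) for PXYa and PXYb, in edgeR. These sets were defined from the counts after the data had been seen.

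By line, the PXY copies rose in LBD11-OE-1, by 0.61 on the log2 scale in both cases (edgeR adjusted p = 0.0275 for PXYa and 0.0177 for PXYb). Both calls were lost without LBD11-OE-1 replicate 1 (0.44 for PXYa, edgeR adjusted p = 0.170; 0.43 for PXYb, adjusted p = 0.141) and when only the libraries of that line and WT were fitted (adjusted p = 0.108 and 0.0842). Without WT replicate 3 both passed at smaller values, 0.45 for PXYa (edgeR adjusted p = 0.0107) and 0.46 for PXYb (adjusted p = 0.00911). In LBD11-OE-2 and LBD11-OE-14 the values were 0.28 and 0.44 for PXYa and 0.27 and 0.36 for PXYb, with edgeR adjusted p-values from 0.0933 to 0.334. Among LBD4-OE lines, LBD4-OE-14 and LBD4-OE-17 had PXYa values of 0.52 and 0.49 and PXYb values of 0.43 and 0.42, whereas LBD4-OE-11 was at 0.08 and -0.01, and none passed (edgeR adjusted p from 0.175 to 0.990). The difference among the 3 LBD4-OE lines was not significant for PXYa (edgeR adjusted p = 0.598) or PXYb (adjusted p = 0.553). Without line LBD11-OE-1 the rise in LBD11-OE missed the threshold (edgeR adjusted p = 0.105 for PXYa and 0.127 for PXYb), and so it did without line LBD11-OE-14 (0.0645 and 0.0538) and when line was a random block in limma voom (0.0567 and 0.0656). LBD11-OE-1 had the highest mean of both copies, 272 and 486 CPM, and WT and LBD4-OE-11 the lowest; no neighbours in these orders differed.

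**Figure D3:**
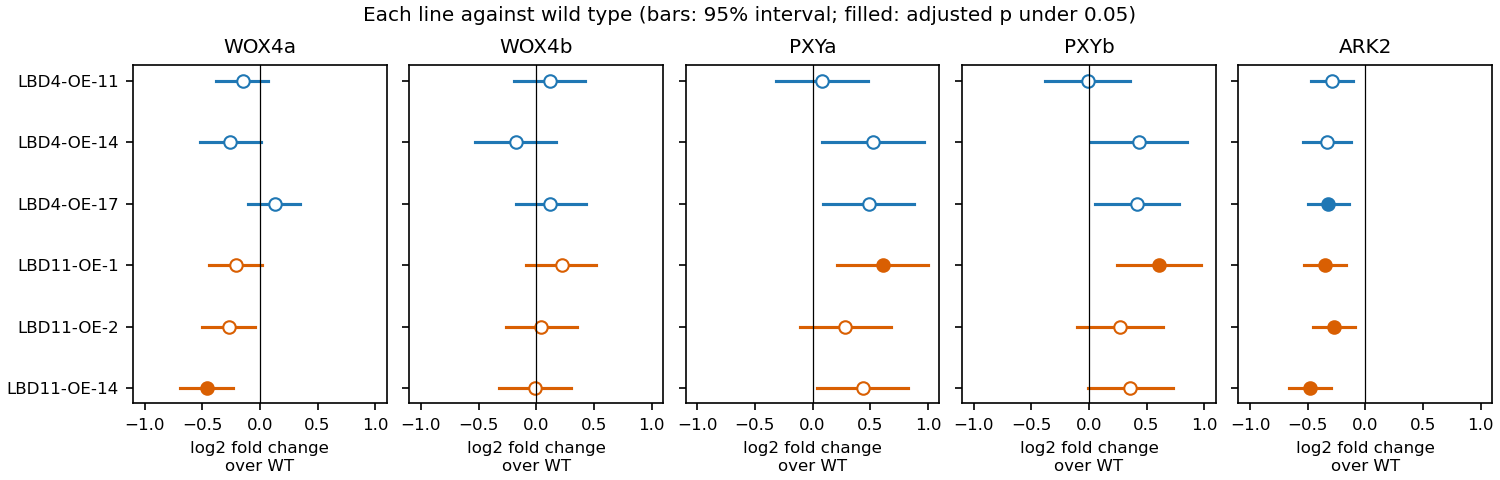
Log2 fold change of each regulator in each of the 6 transgenic lines against the 5 WT libraries, with 95% intervals from edgeR. Filled points passed an adjusted p of 0.05, which was the case for ARK2 in 4 lines, for both PXY copies in LBD11-OE-1 and for WOX4a in LBD11-OE-14.

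WOX4a, the homeobox gene whose Arabidopsis counterpart acts downstream of PXY, was lower in LBD11-OE. It was at 202, 170, 150, 177 and 174 CPM in WT replicates 1 to 5. In LBD11-OE it was at 178, 130 and 144 CPM in line 1, 140, 137 and 156 CPM in line 2, and 143, 106 and 133 CPM in line 14. In LBD4-OE it was at 151, 155 and 165 CPM in line 11, 138 and 154 CPM in line 14, and 198, 172 and 200 CPM in line 17. The groups overlapped: LBD11-OE-1 replicate 1 reached the upper WT range, and line LBD4-OE-17 lay within it.

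The mean of WOX4a was 174 ± 18.5 CPM in WT (SD, n = 5), 141 ± 19.6 CPM in LBD11-OE (SD, n = 9) and 167 ± 22.5 CPM in LBD4-OE (SD, n = 8). Its log2 fold change in LBD11-OE was -0.31 ± 0.10 (SE, edgeR adjusted p = 0.0175), or 0.808-fold. In LBD4-OE it was -0.06 with a 95% interval of -0.27 to 0.15 (edgeR adjusted p = 0.771). The direct comparison of the constructs gave -0.25 ± 0.09 (SE, edgeR adjusted p = 0.0484), or 0.843-fold, close to the threshold.

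Leaving out WT replicate 1 ended the call of WOX4a in LBD11-OE (log2 fold change -0.25, edgeR adjusted p = 0.0700), as did leaving out line LBD11-OE-14 (-0.24, adjusted p = 0.0869). Within the larger library set it was -0.38 (edgeR adjusted p = 0.0254). Against WT replicate 3 alone, the WT library lowest in WOX4a at 150 CPM, the smaller set gave -0.07, which tests nothing about the construct. The difference between the constructs passed without 7 of the 22 libraries in turn and missed the threshold without each of the other 15 in turn (log2 fold changes of -0.29 to -0.20 and edgeR adjusted p-values of 0.0141 to 0.113). Those 15 were WT replicates 2, 4 and 5, LBD4-OE-11 replicates 2 and 3, all 3 of LBD4-OE-17, LBD11-OE-1 replicates 2 and 3, LBD11-OE-2 replicates 1 and 2 and all 3 of LBD11-OE-14. Without line LBD4-OE-17 it was -0.12 (edgeR adjusted p = 0.434), and it was -0.31 within the larger set (adjusted p = 0.0750) and -0.13 within the smaller, where it did not pass either.

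Of the single lines, LBD11-OE-14 had lower WOX4a than WT (log2 fold change -0.46 ± 0.11, SE, edgeR adjusted p = 0.00395), a call lost, at -0.34, without replicate 2 of that line. The other LBD11-OE lines were at -0.21 and -0.27 (edgeR adjusted p = 0.177 and 0.0940). The LBD4-OE lines ran from -0.26 in line 14 to 0.13 in line 17, and none passed (edgeR adjusted p from 0.339 to 0.578). WOX4a had the lowest unadjusted p among the 5 regulators for a difference among the LBD4-OE lines, 0.0212, with an edgeR adjusted p of 0.420; 0.194% of all genes differed among those lines and 1.36% among the LBD11-OE lines. None of the 5 regulators differed among lines of either construct, and the lowest unadjusted p among LBD11-OE lines was 0.124, for ARK2. The order of WOX4a ran from LBD4-OE-17 at 190 CPM and WT at 174 CPM down to LBD11-OE-14 at 127 CPM, with no neighbours that differed.

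WOX4b, the other WOX4 copy, did not pass the test in any comparison of groups or lines. It was at 55.6, 46.8, 52.0, 50.9 and 48.0 CPM in WT replicates 1 to 5, at 44.0 to 65.6 CPM in LBD4-OE with a median of 50.9 CPM, and at 37.1 to 68.5 CPM in LBD11-OE with a median of 51.3 CPM. The medians of the 3 groups lay close together, while the libraries of each construct, pooled over lines, spread more widely than WT. By line the SD was 3.02 CPM in LBD11-OE-2 and 1.04 CPM in LBD4-OE-14, below 3.48 CPM in WT. It was 7.13 to 16.3 CPM in the other lines, and the spread was not tested. The log2 fold change was 0.09 in LBD11-OE with a 95% interval of -0.15 to 0.33 (edgeR adjusted p = 0.589) and 0.06 in LBD4-OE with an interval of -0.19 to 0.30 (adjusted p = 0.828). These intervals leave room for changes of up to 1.25-fold upward and 0.903-fold downward in LBD11-OE. LBD11-OE-1 had the highest mean, 58.9 CPM, and LBD4-OE-14 the lowest, 44.7 CPM, and no neighbours in the order differed.

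The ratio of the WOX4 copies within a library does not depend on how libraries are scaled. WT had 3.62, 3.64, 2.88, 3.47 and 3.62 counts of WOX4a per count of WOX4b in replicates 1 to 5. In LBD11-OE the ratio was 2.60, 2.53 and 2.52 in line 1, 2.77, 2.72 and 2.80 in line 2, and 3.16, 2.84 and 1.95 in line 14. In LBD4-OE it ran from 2.46 to 3.71 with a median of 3.16. All LBD11-OE libraries lay below the 4 WT libraries other than replicate 3, and 8 of the 9 lay below replicate 3 as well.

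The mean log2 ratio was 1.40 ± 0.19 in LBD11-OE (SD, n = 9) and 1.78 ± 0.14 in WT (SD, n = 5), a difference of -0.38 (exact two-sided permutation test over 2002 divisions, p = 9.990e-04, adjusted over 6 comparisons p = 0.00599; the smallest p possible was 4.995e-04). LBD4-OE, at 1.67 ± 0.19 (SD, n = 8), differed from WT by -0.11 (exact permutation p = 0.302, adjusted p = 0.305). LBD11-OE was below LBD4-OE by 0.27 (exact permutation p = 0.00860, adjusted p = 0.0258). These tests took libraries as exchangeable, although those of each construct came from 3 lines. No test with line as the unit was run for the ratios, so the p-values may overstate the evidence. The line means were 1.35, 1.47 and 1.37 in LBD11-OE-1, LBD11-OE-2 and LBD11-OE-14. They were 1.52, 1.71 and 1.80 in LBD4-OE-11, LBD4-OE-14 and LBD4-OE-17. The difference from WT passed with each library left out in turn, with differences of -0.45 to -0.33 and adjusted exact permutation p-values of 0.00466 to 0.0252. The difference between the constructs missed the threshold without LBD4-OE-14 replicate 2 (adjusted exact permutation p = 0.0519), LBD4-OE-17 replicate 1 (0.0582) or LBD4-OE-17 replicate 2 (0.0580). Within the larger library set both differences passed, at -0.48 against WT and -0.40 between the constructs (adjusted exact permutation p = 0.0325 each). Within the smaller set LBD11-OE, there only LBD11-OE-2, was below LBD4-OE, there only LBD4-OE-11, by 0.05 (adjusted exact permutation p = 0.700). With 3 libraries on each side that test could not reach a p under 0.05 whatever the values, so it decides nothing.

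The PXY copies kept a narrower ratio. There were 0.52 to 0.58 counts of PXYa per count of PXYb in WT, 0.55 to 0.63 in LBD4-OE and 0.53 to 0.64 in LBD11-OE, all overlapping. The log2 ratio was higher by 0.05 in LBD11-OE than in WT (adjusted exact permutation p = 0.305) and by 0.09 in LBD4-OE (exact permutation p = 0.0295, adjusted p = 0.0591). The latter passed without WT replicate 4 (adjusted exact permutation p = 0.0323) or LBD4-OE-11 replicate 1 (0.0114). How the counting treated reads that could come from either copy of a pair is not given, so both ratios are uncertain to that extent.

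**Figure D4:**
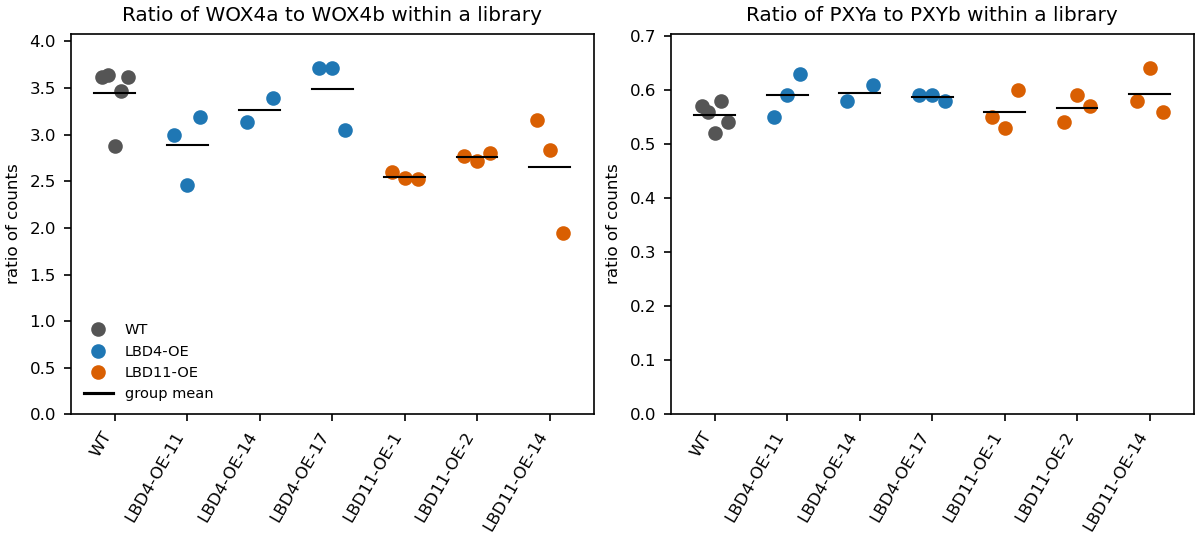
Ratio of counts of the 2 copies of WOX4 and of PXY in each of the 22 libraries, by group, with group means. The WOX4a to WOX4b ratio lies at 1.95 to 3.16 in LBD11-OE and at 2.88 to 3.64 in WT, while the PXYa to PXYb ratio overlaps between groups.

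The regulators also varied among libraries of the same line. Deviations of log2 CPM from the line mean were correlated over 22 libraries for each of the 10 pairs, with libraries permuted within lines and p-values adjusted over the 10. The PXY copies moved together, with Pearson's r of 0.97 (permutation adjusted p = 2.000e-04) and Spearman's rho of 0.95 (adjusted p = 3.000e-04), and r stayed at 0.92 without the 2 libraries farthest from the median. WOX4a went with PXYa (r = 0.60, permutation adjusted p = 0.0480; rho = 0.60, adjusted p = 0.0283) and with PXYb (r = 0.62, adjusted p = 0.0480; rho = 0.64, adjusted p = 0.0283). ARK2 went against PXYa (r = -0.71, permutation adjusted p = 0.0480; rho = -0.60, adjusted p = 0.0283). Without the 2 farthest libraries these values of r were 0.60, 0.57 and -0.49.

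Several of these relations no longer passed without WT replicate 3, although r of WOX4a with either PXY copy changed little. Without it, the PXY copies kept r = 0.92 (permutation adjusted p = 0.00200), while WOX4a with PXYa had r = 0.54 and with PXYb r = 0.56 (adjusted p = 0.223 each), and PXYa with ARK2 had r = -0.39 (adjusted p = 0.307). For ARK2 with PXYb (r = -0.65) and WOX4a with WOX4b (r = 0.59) the permutation adjusted p was 0.0764 each, with rho of -0.51 (adjusted p = 0.0464) and 0.58 (adjusted p = 0.0430). The remaining 4 pairs had r between -0.19 and 0.14, with permutation adjusted p from 0.539 to 0.880. The libraries share normalization, which ties such deviations to each other.

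**Figure D5:**
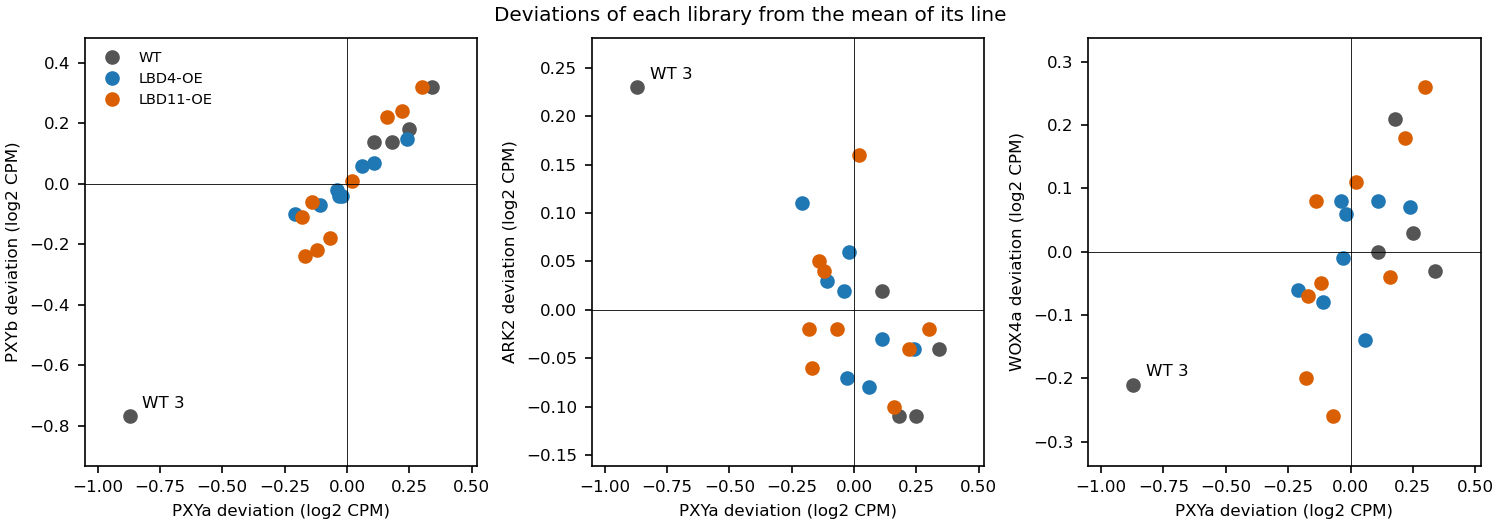
Deviation of each library from the mean of its line (log2 CPM), for PXYb, ARK2 and WOX4a against PXYa. Points are the 22 libraries, coloured by construct; WT replicate 3 lies far to the left in each panel, and the PXY copies follow one line with r = 0.97 over all libraries and 0.92 without it.

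Among 18249 genes with a mean of at least 5 CPM, the genes whose levels over the 22 libraries were most like each regulator were listed by Pearson's r, as a description. The 5 regulators themselves were left out of this search, so 1 PXY copy could not be listed for the other. Levels closest to WOX4a were those of Potri.016G013700 and Potri.017G094200 (r = 0.90 each), and closest to WOX4b those of Potri.014G115000 (r = 0.83) and Potri.008G140000 (r = 0.78). Potri.011G087500 was the closest to both PXYa (r = 0.97) and PXYb (r = 0.96), followed by Potri.016G081300 for PXYa (r = 0.97) and Potri.001G120300 for PXYb (r = 0.96). For ARK2 they were Potri.012G062300 (r = 0.93) and Potri.013G041300 (r = 0.92). With line means removed, the closest genes were others: Potri.001G090400 and Potri.008G030600 for WOX4a (r = 0.86 each), Potri.001G352500 (r = 0.91) and Potri.002G198400 (r = 0.90) for WOX4b, Potri.014G158400 and Potri.006G035200 for PXYa (r = 0.98 each), Potri.001G162400 and Potri.007G038300 for PXYb (r = 0.98 each), and Potri.008G087600 and Potri.004G188600 for ARK2 (r = 0.92 each).

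Other genes of the same families and pathway were taken from lists of identifiers. Their counts in LBD11-OE stand beside 16.1% of all genes that rose and 16.3% that fell. Of 3 relatives in the KNOX family 1 fell in LBD11-OE and none rose: Potri.010G043500 averaged 78.4 ± 7.78 CPM in the WT libraries (SD, n = 5) and 61.2 ± 7.05 CPM under LBD11 (SD, n = 9). Its log2 fold change was -0.36, as for ARK2 (edgeR adjusted p = 5.036e-04). The 3 had a median log2 fold change of -0.15. Of 5 WOX relatives 3 could be tested: Potri.005G252800 rose by 0.34 (edgeR adjusted p = 0.0135), Potri.002G008800 fell by 0.49 (adjusted p = 0.00350), and the median was 0.09. WT replicate 3 held 171 CPM of Potri.002G008800 against 89.1 to 93.6 CPM in the other WT libraries, and without it the log2 fold change was -0.26 (edgeR adjusted p = 0.0214). In LBD4-OE none of the KNOX or WOX relatives passed edgeR's test, with medians of -0.13 and -0.09.

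Of 11 other cambium and vascular regulators, 2 rose and 3 fell in LBD11-OE, where 32.3% of all genes changed, with a median log2 fold change of -0.09 and a range of -0.46 to 0.59. Potri.002G024500 rose by 0.59 (edgeR adjusted p = 6.635e-04) and Potri.002G114800 by 0.39 (adjusted p = 3.340e-04), while Potri.012G019400 fell by 0.46 (adjusted p = 0.00454) and Potri.003G050100 by 0.27 (adjusted p = 0.00418). In LBD4-OE, where 4.28% of all genes changed, 1 of the 11 rose and none fell, with a median of 0.08. Of 5 secondary wall cellulose synthases, the wood marker, 3 rose in LBD11-OE, with a median of 0.35 and a range of -0.04 to 0.51. Without WT replicate 3, 2 of 5 rose, with a median of 0.22. None of 5 passed in LBD4-OE (median 0.14). Of 3 circadian clock genes, taken as a sign of sample state, 2 fell and 1 rose in LBD11-OE (median -0.46), and none passed in LBD4-OE (median 0.03). The 1 that rose, Potri.015G061900, did not pass without WT replicate 3 (log2 fold change 0.26, edgeR adjusted p = 0.0707), and no clock gene rose within the larger library set or with line as a random block. These counts stand beside the same shares of all genes. Their part in the changes of the PXY copies, WOX4a and ARK2 was not tested.

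On the scale of all genes these were modest changes. In LBD11-OE 20.1% of all genes had a larger log2 fold change, in either direction, than PXYa, 22.1% than PXYb, 27.1% than ARK2 and 33.1% than WOX4a. The genes lie on chromosome 14 from 1556814 to 1558444 (WOX4a, plus strand), chromosome 2 from 9422868 to 9424297 (WOX4b, plus strand), chromosome 3 from 13038758 to 13043745 (PXYa, plus strand), chromosome 1 from 10350169 to 10354817 (PXYb, minus strand) and chromosome 2 from 8562423 to 8568771 (ARK2, plus strand), as the deposited tables place them.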

How the data were processed

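RNA from stem internodes was poly(A)-selected and sequenced as paired-end reads on an Illumina HiSeq instrument, per the labels' protocols. HTSeq counting, HISAT2, Trimmomatic, Cufflinks and MultiQC are named per the submitters' processing notes, while tool versions, strandedness and genome build are not given in the sources used here. Raw counts per gene are what the authors deposited. Every row carries a gene identifier.

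Counts were fitted in edgeR 4.0.16 (R 4.3.3) with TMM scaling, filterByExpr (at least 10 counts in enough libraries and 15 in all), and the robust quasi-likelihood F test over all 22 libraries, with 3 group means (25626 genes tested) or 7 line means (26271 genes). Calls used a Benjamini-Hochberg adjusted p under 0.05 over all genes tested. CPM values are TMM-scaled. Ratios of copies used a pseudocount of 0.5 and exact permutation tests over libraries, without regard to line. Correlations used 100000 permutations within lines. DESeq2 1.42.0, limma 3.58.1, other scalings, no filter, a replicate block, and left-out libraries and lines were alternatives. The construct tests were also run on simulated counts of independent libraries. The simulation held no differences between lines, so it does not check that part of the design.

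All identifiers of the list are named, with the genes closest by correlation and, of each further list, up to 4 by size of change. Members and lists were chosen with earlier results of these data known. The transgenes were not analysed here. Levels are not compared between genes, since no transcript lengths were used.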

Additional observations from a re-analysis of the deposited data

Results flagged for a closer look

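WT replicate 3 lay apart from the other 4 WT libraries over all genes tested (second principal component at -75.6 against 1.05 to 16.5) and in 3 measures of the regulators. PXYa (Potri.003G107600) was at 93.8 CPM there against 185 to 216 CPM in the others, and PXYb (Potri.001G126100) at 181 CPM against 339 to 385 CPM. The ratio of WOX4a to WOX4b was 2.88 there against 3.47 to 3.64. Among the 9 LBD11-OE libraries, ARK2 (Potri.002G113300) in LBD11-OE-2 replicate 3 was at 492 CPM, with the next library at 429 CPM and the lowest at 373 CPM. By this measure (Dixon's gap over range at 95%) chance alone singles out about 1 in 20 groups, and 21 groups were examined. No cause was tested.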

How the results depend on the processing

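Of the regulators, 4 changed in LBD11-OE against WT, 1 in LBD4-OE against WT and 1 between the constructs. Without single libraries these counts ran from 2 to 4, from 0 to 1 and from 0 to 1. In LBD11-OE against WT the count was 2 with line as a random block, without line LBD11-OE-1, with both WT replicate 3 and LBD4-OE-11 replicate 1 left out, and within the smaller library set (the PXY copies against WT replicate 3 alone), and 1 without line LBD11-OE-14. In LBD4-OE against WT it was 0 under the replicate block, with line as a random block and without line LBD4-OE-17, and 3 with library set as a term. Between the constructs it was 0 under RLE size factors, upper-quartile scaling, no filter, the replicate block, line as a random block, within either library set, and without line LBD4-OE-11, LBD4-OE-17, LBD11-OE-2 or LBD11-OE-14.

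The 7 calls of single lines against WT (2 higher, 5 lower) were 3, all lower, when only the libraries of that line and WT were fitted and 4 to 7 without single libraries; the 4, all lower, were without LBD11-OE-1 replicate 1. The 4 correlations that passed became 1 to 5. The replicate numbers did not pair the libraries: 57 same-numbered pairs had a median r of -0.01, and 7 of 22 libraries correlated best with their own number. With the replicate number as a block, WOX4a in LBD11-OE had an edgeR adjusted p of 0.0642 and 3 regulators passed there, ARK2 in LBD4-OE had 0.0573, 6 calls of single lines passed, and 0 regulators differed among lines.

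Signs turned for values near 0 between the constructs: WOX4b was -1.50e-04 under total counts, -0.02 to 0.09 without single libraries, -0.03 when line LBD4-OE-14 or line LBD11-OE-1 was left out and -0.09 in the smaller set; PXYa was -0.05 and PXYb -0.0047 without line LBD4-OE-11; ARK2 was 0.0028 without line LBD11-OE-14 and 0.0023 within the smaller set. Within the smaller set WOX4b was -0.01 in LBD11-OE and WOX4a 0.06 in LBD4-OE against WT replicate 3, the only WT library there. WOX4a with ARK2 had r = 0.04 from construct means and 0.09 without WT replicate 3, and WOX4b with PXYa 0.03 without it. The ratio of WOX4 copies between the constructs ran from -0.33 to -0.22 without single libraries and was -0.05 within the smaller set, and the PXY ratio in LBD4-OE ran from 0.06 to 0.10. The cause was not tested. Counts were deep; the number of libraries limits the precision.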
